A study of Mus musculus with 24 samples.

Results

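Amino acid transporters are the membrane proteins that carry amino acids into and out of cells, and in the kidney they recover nearly all of the amino acids filtered at the glomerulus. In proximal tubule cells, sodium-coupled carriers and exchangers of the brush border take amino acids up from the filtrate, and exchangers and uniporters of the basolateral membrane pass them on to the blood. Several exchangers are pairs of a heavy chain (SLC3 family), which brings the pair to the membrane, and a light chain (SLC7 family), which carries the amino acid. Members were all entries of the expression table whose symbol named the families SLC1, SLC3, SLC6, SLC7, SLC36, SLC38 or SLC43, or Slc16a10, followed only by a number. The families also hold carriers of monoamines, taurine, creatine and other substrates. The rule found 56 of 19426 entries, and 45 had a mean of at least 0.5 FPKM (fragments per kilobase of transcript, scaled to the library's mapped total) over the 24 libraries. The lowest measured member was Slc7a4 at a mean of 0.543 FPKM, and the highest of the 11 below the minimum was Slc6a2 at 0.339 FPKM. Of the near misses of the rule, Slc6a20a and Slc6a20b, mouse relatives of a human proline carrier gene, have symbols that end in a letter.

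Whole kidneys of C57BL6 mice, labelled male and 13 weeks old by the study's methods, were profiled by bulk RNA sequencing after 1 injection. Of the 24 libraries, 8 were from mice given PTH (hPTH(1-34), the active fragment of human parathyroid hormone), 8 from mice given YKL-05-099 (a drug-like compound that blocks the salt-inducible kinases, or SIKs) and 8 from mice given vehicle. SIKs act downstream of the PTH receptor, and the series holds the hormone and an inhibitor of these kinases, so each can be set against vehicle and against the other. The methods put collection 1 h after PTH and 3 h after YKL-05-099, so agent and time cannot be told apart, and the inhibitor also acts on other kinases. No collection time is given for vehicle mice, so time may differ in the comparisons against vehicle as well. No genetic change is named for any group. The series text names intraperitoneal injections and 6 mice per treatment, whereas the methods give PTH under the skin and the table holds 8 libraries per group. Whether each library came from its own mouse is not stated, so p-values measure the spread between libraries, which may be technical in part.

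Depth was estimated from the values at 5980000 to 7340000 fragments per library, and 16362 to 16866 entries were above 0. For 31 members with a known transcript length, this depth gave a median of 146 fragments per library, and 9 members had fewer than 50. Xist was at 76.3 to 114 FPKM in every library, while the Y-linked Ddx3y and Uty stayed at or below 0.1 FPKM, which goes against the labelled sex in all 3 groups. Cyp27b1 encodes the vitamin D activating enzyme, and the study reported that both agents raised its mRNA. Here Cyp27b1 averaged 63.3 FPKM with PTH, 33.5 FPKM with YKL-05-099 and 4.65 FPKM with vehicle. Proximal tubule markers were abundant in every library, with the 8 markers of the S1 and S2 segments summing to 3040 to 4129 FPKM with PTH, 3654 to 5367 FPKM with YKL-05-099 and 3189 to 3641 FPKM with vehicle. Urothelium markers, a sign of how much renal pelvis was taken with the kidney, summed to 1.51 to 64 FPKM with PTH, 2.21 to 34 FPKM with YKL-05-099 and 2.4 to 31.2 FPKM with vehicle. In bulk tissue, fewer cells of a type and less RNA per cell cannot be told apart.

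In vehicle kidneys, 11 members averaged at least 50 FPKM, 11 lay between 10 and 50 FPKM, 16 between 1 and 10 FPKM and 7 below 1 FPKM. The 6 highest members over all libraries were Slc3a1, Slc6a18, Slc3a2, Slc7a12, Slc6a19 and Slc6a6, at means of 291, 229, 162, 121, 87.1 and 86.6 FPKM. Slc3a1 encodes rBAT, the heavy chain of the cystine carrier of the brush border, and Slc6a18 and Slc6a19 encode the brush-border carriers of neutral amino acids B0AT3 and B0AT1. The 11 members at 50 FPKM or more in vehicle kidneys also included the rBAT partner Slc7a9, the basolateral light chains Slc7a7 and Slc7a8, the creatine carrier Slc6a8 and the glutamate carrier Slc1a1. The second partner of rBAT, Slc7a13, averaged 0.986 ± 0.477 FPKM in vehicle kidneys (SD, n = 8). Summed over all 45 members, FPKM came to 1710 ± 170 with PTH, 1778 ± 109 with YKL-05-099 and 1481 ± 102 with vehicle (SD, n = 8 each). The sum is a description, since a few abundant members set it.

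**Figure D1:**
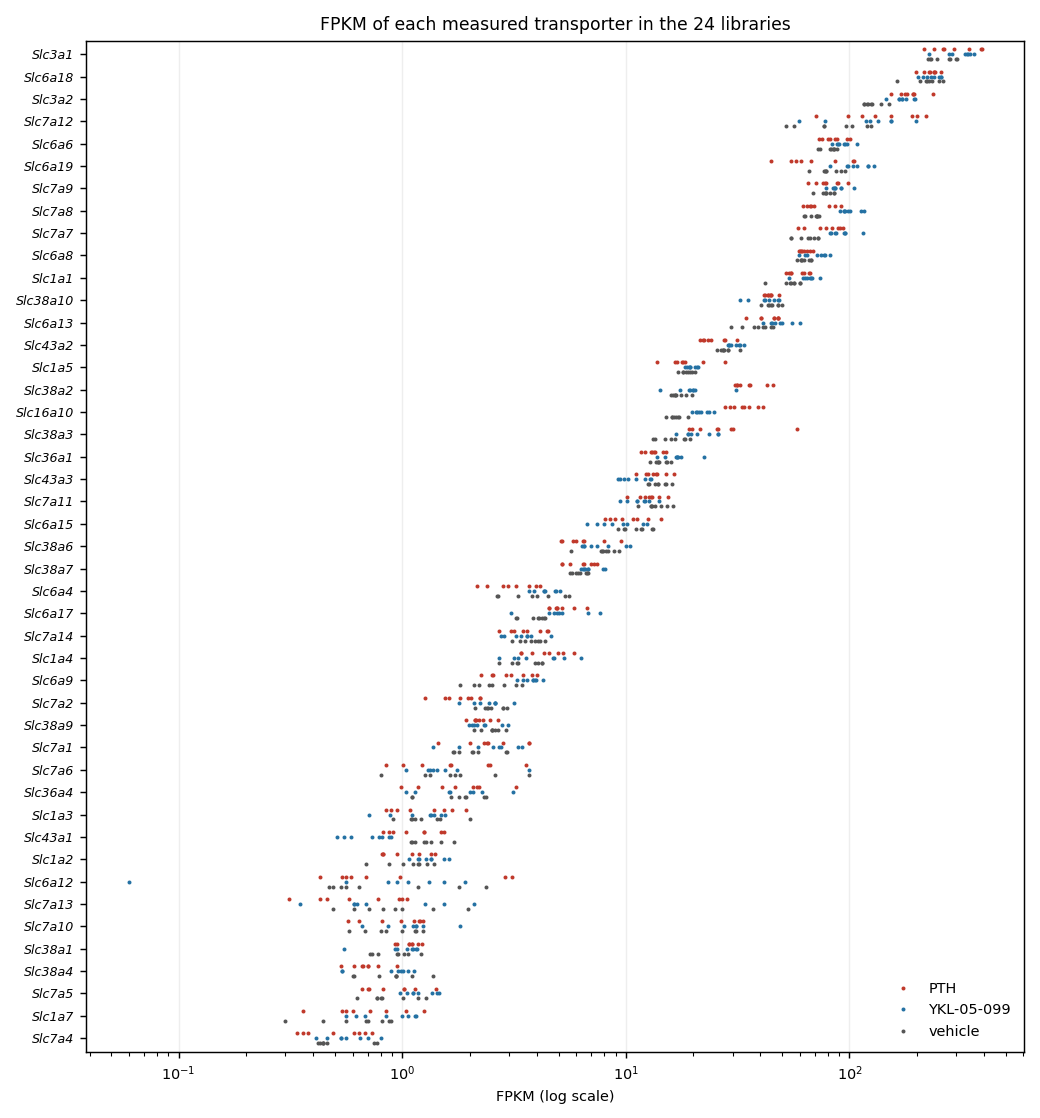
FPKM of the 45 measured amino acid transporters on a log axis, ordered by their mean in vehicle kidneys, with 1 point per library (PTH red, YKL-05-099 blue, vehicle grey). Slc3a1 and Slc6a18 lie at the top and Slc7a4 at the bottom, and the 8 PTH libraries of Slc38a2 and Slc16a10 lie to the right of their vehicle libraries.

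With PTH a small set of transporters was higher, and of the 45 measured members Slc38a2 and Slc16a10 had the largest fold changes. In PTH against vehicle, 7 of 45 members were called higher and 1 lower at an adjusted p below 0.05 (limma, Benjamini-Hochberg over 13991 genes), 17.8% of the members where 17.1% of all genes were called. By direction, 15.6% of the members were called higher, where 6.00% of all genes were, and 2.22% lower, where 11.1% of all genes were. Under median-ratio scaling of the libraries the calls over all genes split into 1097 higher and 1102 lower, against 839 and 1558 as deposited, and those of the members stayed at 7 and 1. The members' median log2 fold change was 0.02 and that of all genes -0.05, so the typical member stayed near 0, and 26 of 45 members lay above 0 where 40.7% of all genes did. The groups did not overlap for 4 members, all higher with PTH, or 8.89% of the members, where 2.84% of all genes were separated (1.59% higher and 1.24% lower). Called higher were Slc38a2, Slc16a10, Slc38a3, Slc7a12, Slc3a2, Slc6a17 and Slc7a7, in order of fold change, and Slc7a2 was called lower.

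Slc38a2 encodes SNAT2, a sodium-coupled carrier that loads cells with small neutral amino acids. Its PTH libraries had 30.7 FPKM at the lowest, 34 at the median and 45.6 at the highest, against 15.9, 16.7 and 19.8 FPKM in vehicle libraries. All 8 PTH libraries lay above all 8 vehicle libraries. The fold was 2.05 (log2 fold change 1.04 ± 0.11 SE, limma adjusted p = 1.4e-07). YKL-05-099 libraries had 14.2 FPKM at the lowest, 19.6 at the median and 31 at the highest, which overlapped the vehicle libraries. The log2 fold change of YKL-05-099 against vehicle was 0.20 (95% interval -0.03 to 0.42, adjusted p = 0.22), and against PTH it was -0.84 ± 0.11 (adjusted p = 1.7e-05). The highest YKL-05-099 library, replicate 1, was the only one to reach the PTH range, and the other 7 lay between 14.2 and 20.4 FPKM. Without it, YKL-05-099 against vehicle came to 0.10 and YKL-05-099 against PTH to -0.93. Its neighbour on chromosome 15, Slc38a1, which encodes the related carrier SNAT1, had a log2 fold change of 0.21 with PTH (95% interval -0.08 to 0.51), and Slc38a4, next to it, one of -0.31 (95% interval -0.69 to 0.06).

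Slc16a10 encodes TAT1, a basolateral uniporter that lets aromatic amino acids leave the cell, and its level was ordered by group. PTH libraries had 27.8, 33.4 and 41.2 FPKM (lowest, median and highest), YKL-05-099 libraries 19.8, 21.5 and 24.8 FPKM and vehicle libraries 15.2, 16.6 and 18.9 FPKM. The 3 groups did not overlap in any pair. The fold was 2 for PTH against vehicle (log2 fold change 1.00 ± 0.07 SE, adjusted p = 2.2e-10) and 1.31 for YKL-05-099 against vehicle (0.39 ± 0.07, adjusted p = 8.8e-04). YKL-05-099 was lower than PTH by a log2 fold change of -0.61 ± 0.07 (adjusted p = 7.2e-06). Of the 45 measured members, Slc16a10 had the smallest p in PTH against vehicle.

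The promoters of Slc38a2 and Slc16a10, with the largest fold changes of the measured members for PTH, are printed to show where they hold sites for the cAMP-responsive factors that PTH is known to activate. Each is the 250 bases before a RefSeq start on GRCm38.p6, 5′ to 3′ on the gene's strand, with the core TGACG of the cAMP response element, in either orientation, in capitals. The Slc38a2 stretch is chr15:96699729-96699978, and that of Slc16a10 is chr10:40142255-40142504, both on the minus strand.
Slc38a2: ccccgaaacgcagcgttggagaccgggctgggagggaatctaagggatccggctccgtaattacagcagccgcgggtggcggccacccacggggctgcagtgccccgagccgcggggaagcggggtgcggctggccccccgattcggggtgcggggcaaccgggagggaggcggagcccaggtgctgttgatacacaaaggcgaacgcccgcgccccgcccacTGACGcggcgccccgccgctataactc
Slc16a10: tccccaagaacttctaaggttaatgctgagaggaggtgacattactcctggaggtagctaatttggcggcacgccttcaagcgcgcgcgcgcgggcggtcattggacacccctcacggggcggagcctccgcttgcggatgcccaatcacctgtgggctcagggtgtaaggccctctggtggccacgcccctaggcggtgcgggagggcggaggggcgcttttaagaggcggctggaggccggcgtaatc
In Slc38a2 the core began 27 bases before the start, and Slc16a10 held none in its window. Over windows that ran to 50 bases past the start, TGACG on either strand was found in 29.3% of 13974 windows of tested genes, or in 33.8% of 10996 genes, and in 13 of 32 measured members with a window. The full element TGACGTCA, which reads the same on both strands and holds the core, was found in 2.76% of windows, or in 3.29% of genes, and in 1 member, Slc38a6. Of the 5 members called higher with PTH that had a window, 2 held TGACG (Slc38a2, and Slc6a17 in 1 of its 2 windows), 3 did not (Slc16a10, Slc3a2 and Slc7a7), and 0 held TGACGTCA. The C/EBP-ATF composite TGATGNAA, to which the amino acid response factor ATF4 binds, was found in 2.35% of windows on either strand, or in 2.85% of genes. It was found in 3 members, Slc7a7 (in some of its windows only), Slc7a11 and Slc1a4. The Slc3a2 window lay inside the gene, and the bases just past its start were found in 0 GENCODE transcripts of the gene. A match describes letters in the window only.

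Slc38a3 encodes SNAT3, which brings glutamine into tubule cells for ammonia production. PTH libraries had 19.1, 25.8 and 58.2 FPKM (lowest, median and highest), against 13.2, 16.2 and 19.4 FPKM in vehicle libraries. The lowest PTH library lay just under the highest vehicle library, and the highest, replicate 4, stood well above the next at 30 FPKM. The log2 fold change was 0.74 ± 0.16 SE (adjusted p = 0.00198), and 0.58 ± 0.11 without that library (adjusted p = 8.7e-04). YKL-05-099 libraries had 16.8, 20.2 and 25.9 FPKM, a log2 fold change of 0.38 against vehicle that missed the threshold (95% interval 0.06 to 0.71, adjusted p = 0.0934) and passed it without PTH replicate 4 (adjusted p = 0.0152) and in a fit of those 2 groups alone (adjusted p = 0.00901). The other members of SLC38 that were measured, Slc38a1, Slc38a4, Slc38a6, Slc38a7, Slc38a9 and Slc38a10, were not called in any comparison. Slc38a6 passed the threshold as lower with PTH when libraries were weighted (adjusted p = 0.0308) and without PTH replicate 4 (adjusted p = 0.0316). Slc38a9, a lysosomal carrier that reports arginine to mTORC1, had log2 fold changes of -0.15 with PTH (95% interval -0.35 to 0.04) and -0.10 with YKL-05-099 (95% interval -0.30 to 0.09).

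Slc7a12, an SLC7 member abundant in mouse kidney whose heavy chain is not settled, had 70.6, 142 and 220 FPKM in PTH libraries (lowest, median and highest), against 51.9, 86.8 and 125 FPKM in vehicle libraries. The groups overlapped, with 5 of 8 PTH libraries above the highest vehicle library, and replicates 6, 7 and 8 the highest. PTH replicates 5 to 8, at 153.75 to 220.37 FPKM, all lay above PTH replicates 1 to 4, at 70.56 to 130.7 FPKM. Slc3a1, Slc1a1 and Slc6a6 had the same split of PTH libraries, found after the values were seen and not counted over all members. What the replicate numbers stand for is not stated, and a cause was not tested. For Slc7a12 the log2 value of PTH over vehicle came to 0.71 ± 0.24 SE (adjusted p = 0.0448), the widest error of the called members. YKL-05-099 libraries had 59.3, 129 and 199 FPKM, and the log2 fold change of 0.51 against vehicle was not called (adjusted p = 0.155). The PTH call was lost on leaving out any 1 of 12 libraries (vehicle replicates 1, 2, 4, 7 or 8, PTH replicates 5, 6, 7 or 8, YKL-05-099 replicates 2, 5 or 7), with adjusted p up to 0.0998 and log2 fold changes of 0.61 to 0.74.

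Slc7a2 encodes CAT2, a carrier of arginine and other cationic amino acids, and was the only one of the 45 measured members called lower with PTH. PTH libraries had 1.26, 1.89 and 2.23 FPKM (lowest, median and highest), against 2.11, 2.46 and 2.95 FPKM in vehicle libraries. All but 2 PTH libraries lay below the lowest vehicle library. The log2 fold change was -0.46 ± 0.12 SE (adjusted p = 0.00813). YKL-05-099 libraries, at 1.79, 2.52 and 3.15 FPKM, were higher than PTH libraries by a log2 fold change of 0.40 ± 0.12 (adjusted p = 0.044). That second call was lost on leaving out any 1 of 15 libraries (vehicle replicates 1, 3, 4, 5 or 6, PTH replicates 2, 5, 6 or 8, YKL-05-099 replicates 1, 2, 5, 6, 7 or 8), with adjusted p up to 0.104. A noncoding gene on the opposite strand overlaps exons of Slc7a2, and reads of the 2 cannot be told apart without strand. Slc7a1, the related carrier CAT1, had a log2 fold change of 0.22 with PTH (95% interval -0.16 to 0.61).

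Among the 11 members below the minimum, Slc6a5 stood out, and it was singled out after its values were seen. It encodes GLYT2, a glycine carrier best known from inhibitory neurons. Its PTH libraries had 0.11 FPKM at the lowest, 0.745 at the median and 1.29 at the highest, whereas 4 of 8 YKL-05-099 libraries were listed at 0 and the highest had 0.42 FPKM, and 7 of 8 vehicle libraries were listed at 0 and the other had 0.06 FPKM. All 8 PTH libraries lay above all 8 vehicle libraries. In the fit with no minimum it was called higher with PTH than with vehicle (adjusted p = 1.1e-05) and lower with YKL-05-099 than with PTH (adjusted p = 5.8e-04), and the log2 values of 2.62 ± 0.35 and -2.09 ± 0.35 SE depend on the added 0.1 FPKM. Slc7a3, the cationic amino acid carrier CAT3, had 0.19, 0.35 and 0.53 FPKM in PTH libraries (lowest, median and highest), against 0, 0.155 and 0.36 FPKM in vehicle libraries, and was called higher with PTH in that fit (1.02 ± 0.32, adjusted p = 0.0394). These were 2 of 11 low members, where 4.10% of all genes were called higher with PTH in that fit, and the other 9 were not called in it in any comparison.

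**Figure D2:**
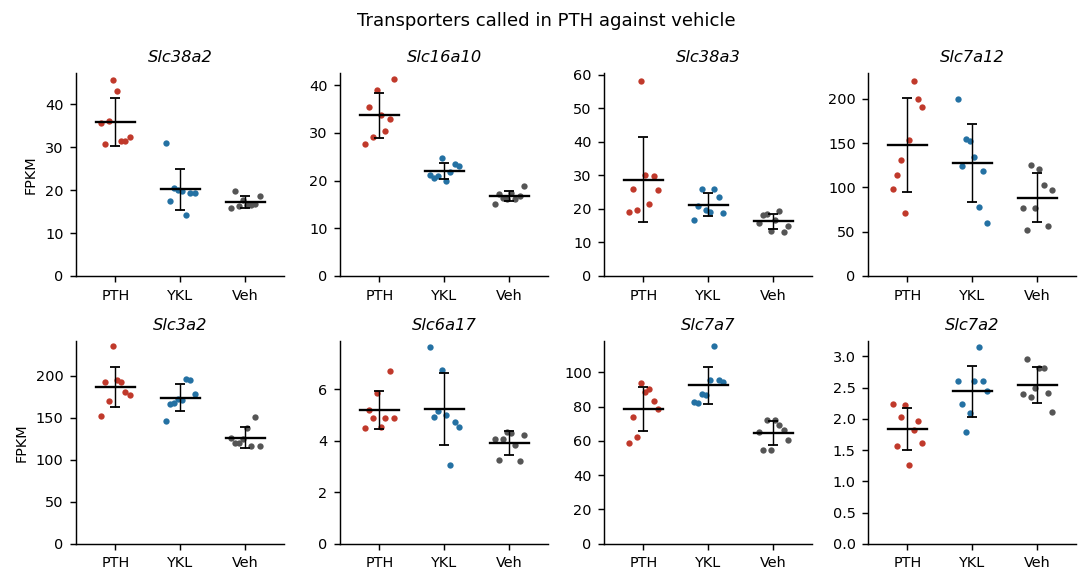
FPKM by library of the 8 amino acid transporters called in PTH against vehicle, in order of fold change (PTH, YKL-05-099 and vehicle from left to right; points are libraries, long bars the mean and whiskers the SD, n = 8 each). Slc38a2, Slc16a10, Slc3a2 and Slc6a17 have every PTH library above every vehicle library, and in Slc38a3 the PTH replicate at 58.2 FPKM stands apart.

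With YKL-05-099 the largest rise among the 45 measured members was a log2 fold change of 0.56, in Slc6a9, and the largest fall was -0.79, in Slc43a1. In YKL-05-099 against vehicle, 11 of 45 members were called higher and 2 lower, 28.9% of the members where 17.7% of all genes were called. By direction, 24.4% of the members were called higher, where 6.26% of all genes were, and 4.44% lower, where 11.5% of all genes were. Median-ratio scaling split the calls over all genes into 1164 higher and 1151 lower, against 876 and 1605 as deposited, and those of the members into 12 and 2. The members' median log2 fold change was 0.17 and that of all genes -0.05, and 31 of 45 members lay above 0 where 41.5% of all genes did. The groups did not overlap for 4 members (Slc7a8, Slc7a7 and Slc16a10 higher, Slc43a1 lower), or 8.89% of the members, where 4.74% of all genes were separated (1.54% higher and 3.20% lower). Of the members called higher, 4 were also called higher with PTH (Slc16a10, Slc3a2, Slc7a7 and Slc6a17), 7 were not (Slc7a8, Slc6a9, Slc6a13, Slc1a1, Slc36a1, Slc6a6 and Slc6a8), and 3 were called higher with PTH and not with YKL-05-099 (Slc38a2, Slc38a3 and Slc7a12). Both comparisons share the vehicle libraries. Proximal tubule markers moved in the same direction, with 2 of 8 S1 and S2 markers (Slc34a1 and Gatm) called higher with YKL-05-099, 0 lower and a median log2 fold change of 0.17, and 2 of 6 S3 markers called higher at a median of 0.25. Leukocyte markers moved the other way, with 3 of 5 called lower (median -0.74), as did 2 of 5 endothelial (median -0.40) and 2 of 4 fibroblast and pericyte markers (median -0.53). The leukocyte markers summed to 15.4 to 24.4 FPKM with YKL-05-099 and 24.3 to 34.8 FPKM with vehicle. With PTH, 0 of 8 S1 and S2 markers and 2 of 6 S3 markers were called, those of S3 higher at a median of 0.28. Distal convoluted tubule markers were called lower in 2 of 4 cases with each agent, at medians of -0.29 with PTH (Trpm6 and Calb1) and -0.32 with YKL-05-099 (Trpm6 and Pvalb). Slc12a3, also on that list, was not called, with log2 fold changes of 0.03 with PTH and 0.14 with YKL-05-099. Pvalb with PTH (-0.25) and Calb1 with YKL-05-099 (-0.27) were not called either. Of 5 intercalated cell markers, 1 was called lower with PTH (Atp6v1b1) and 2 with YKL-05-099 (Atp6v1b1 and Foxi1). The macrophage marker Csf1r was called higher with PTH, and the principal cell marker Scnn1g was called higher with YKL-05-099. The part of these markers in the transporter results was not tested.

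The heavy chain 4F2hc and the light chains it carries held the 3 smallest adjusted p of the members in YKL-05-099 against vehicle. Slc3a2, which encodes 4F2hc (CD98), had 146, 171 and 196 FPKM in YKL-05-099 libraries (lowest, median and highest) and 153, 187 and 235 FPKM in PTH libraries, against 116, 122 and 151 FPKM in vehicle libraries. All 8 PTH libraries and 7 of 8 YKL-05-099 libraries lay above the highest vehicle library. The log2 fold change was 0.46 ± 0.07 SE for YKL-05-099 (adjusted p = 2.5e-04) and 0.56 ± 0.07 for PTH (adjusted p = 7.3e-06). Between the agents, YKL-05-099 against PTH, it was -0.10 (95% interval -0.25 to 0.06).

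Slc7a8 encodes LAT2, the basolateral exchanger of neutral amino acids. YKL-05-099 libraries had 90.3, 96.7 and 116 FPKM (lowest, median and highest) and PTH libraries 61.8, 68.6 and 91.6 FPKM, against 62.8, 71 and 72.8 FPKM in vehicle libraries. Every YKL-05-099 library lay above every vehicle library, and the PTH libraries overlapped both, with replicates 5, 6 and 7 the highest. The log2 fold change was 0.54 ± 0.07 SE for YKL-05-099 against vehicle (adjusted p = 4.2e-05), 0.45 ± 0.07 for YKL-05-099 against PTH (adjusted p = 3.4e-04) and 0.08 for PTH against vehicle (95% interval -0.07 to 0.24). Slc7a7, which lies near Slc7a8 on chromosome 14, encodes y+LAT1, the exchanger of cationic for neutral amino acids that is defective in lysinuric protein intolerance in humans. It had 82, 91.1 and 115 FPKM in YKL-05-099 libraries and 58.7, 81 and 93.7 FPKM in PTH libraries, against 54.7, 65.8 and 72.2 FPKM in vehicle libraries. YKL-05-099 and vehicle libraries did not overlap, while 2 PTH libraries fell within the vehicle range. For Slc7a7, YKL-05-099 replicates 5 to 8, at 94.67 to 115.29 FPKM, all lay above replicates 1 to 4, at 82 to 87.49 FPKM. Its log2 fold change was 0.52 ± 0.09 for YKL-05-099 (adjusted p = 6.6e-04) and 0.28 ± 0.09 for PTH (adjusted p = 0.0394). The PTH call was lost on leaving out any 1 of 10 libraries (vehicle replicates 1, 2, 4, 7 or 8, PTH replicates 4, 5, 6, 7 or 8), with adjusted p up to 0.0862. Exons of Slc7a7 overlap Oxa1l on the opposite strand. The other 4 light chains of 4F2hc, Slc7a5, Slc7a6, Slc7a10 and the cystine exchanger Slc7a11, were not called in any comparison, with log2 fold changes of 0.40, -0.11, 0.24 and -0.24 for YKL-05-099 against vehicle. Slc7a11 lay just short of the threshold for YKL-05-099 (adjusted p = 0.0554) and passed it as lower with the replicate number as a block (0.045), with library weights (0.0429), in a fit of those 2 groups alone (0.0408) and without PTH replicate 2 or 7, YKL-05-099 replicate 2 or vehicle replicate 3 (adjusted p = 0.0298 to 0.0469). Slc7a5 passed it as higher with YKL-05-099 after quantile normalization and with library weights (adjusted p = 0.0155 to 0.0345) and without vehicle replicate 1 (adjusted p = 0.0498).

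Set against each other within libraries, Slc3a2 and its summed light chains rose in proportion with YKL-05-099. With PTH, Slc3a2 rose more than the sum did. Slc7a7 and Slc7a8, at means of 64.4 and 68.9 FPKM in vehicle kidneys, made up most of the sum, so it says little of the other light chains. The FPKM of Slc3a2 over the summed FPKM of its 6 light chains averaged 1.11 ± 0.119 with PTH, 0.835 ± 0.0396 with YKL-05-099 and 0.838 ± 0.0591 with vehicle (SD, n = 8 each). PTH libraries ran from 0.978 to 1.3 and vehicle libraries from 0.762 to 0.955, with no overlap. YKL-05-099 libraries, from 0.761 to 0.873, spanned nearly the vehicle range. The summed light chains were 169 ± 21.6 FPKM with PTH, 208 ± 17.4 FPKM with YKL-05-099 and 151 ± 6.96 FPKM with vehicle. For the brush-border heavy chain Slc3a1, the ratio to its light chains Slc7a9 and Slc7a13 was 3.71 ± 0.756 with PTH, 3.52 ± 0.626 with YKL-05-099 and 3.27 ± 0.421 with vehicle, with wide overlap. Both ratios were chosen after the values were seen, so no p-value is given for them. Ratios of mRNA say nothing of how many protein pairs form.

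**Figure D3:**
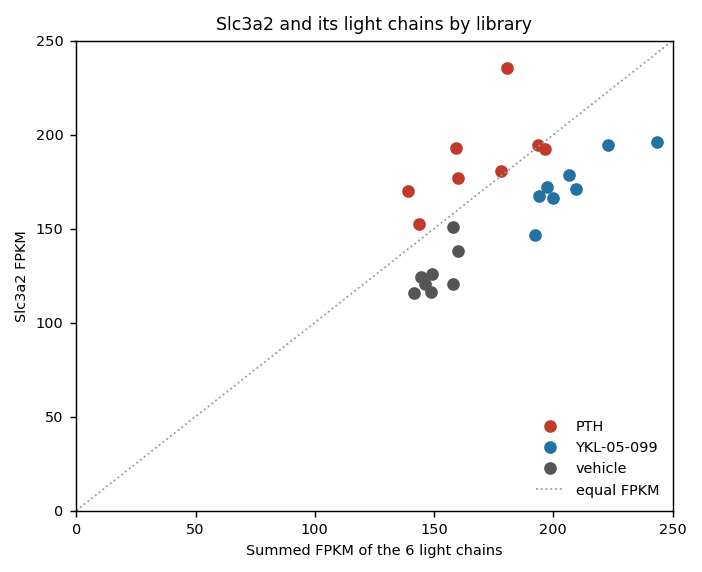
FPKM of the heavy chain Slc3a2 on the y axis against the summed FPKM of its 6 light chains on the x axis, with 1 point per library and a dotted line of equal FPKM. PTH libraries lie on average above the line, at a mean ratio of 1.11, and YKL-05-099 libraries lie up and to the right of vehicle libraries but below the line like them, at mean ratios of 0.835 with YKL-05-099 and 0.838 with vehicle.

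The most abundant carriers of the brush border were not called against vehicle. Slc3a1 had 226, 332 and 361 FPKM in YKL-05-099 libraries (lowest, median and highest) and 215, 279 and 391 FPKM in PTH libraries, against 225, 261 and 303 FPKM in vehicle libraries. The groups overlapped, with log2 fold changes of 0.26 for YKL-05-099 (95% interval 0.01 to 0.50, adjusted p = 0.132) and 0.17 for PTH (95% interval -0.07 to 0.41). Slc7a9, its partner in cystine uptake, had log2 fold changes of 0.16 (95% interval 0.02 to 0.31) with YKL-05-099 and 0.02 (95% interval -0.13 to 0.16) with PTH, and neither was called, though the first passed the threshold with library weights and in a fit of those 2 groups alone (adjusted p = 0.0368 to 0.0413). Slc6a18 had 202, 234 and 258 FPKM in YKL-05-099 libraries and 198, 234 and 256 FPKM in PTH libraries, against 163, 224 and 261 FPKM in vehicle libraries. Its log2 fold changes were 0.08 and 0.06, with 95% intervals of -0.08 to 0.23 for YKL-05-099 and -0.10 to 0.21 for PTH.

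Slc6a19, whose human counterpart is mutated in Hartnup disorder, parted the agents. YKL-05-099 libraries had 82, 106 and 128 FPKM (lowest, median and highest) and PTH libraries 44.7, 64.1 and 105 FPKM, against 65.8, 78.6 and 95.6 FPKM in vehicle libraries. All but 1 YKL-05-099 library lay above the vehicle range, while 4 PTH libraries lay below it and 2, replicates 6 and 7, above it. The log2 fold change of YKL-05-099 against PTH was 0.62, with an SE of 0.14 (adjusted p = 0.00767). Against vehicle, YKL-05-099 came to 0.39 (95% interval 0.10 to 0.68, adjusted p = 0.0525) and PTH to -0.22 (95% interval -0.51 to 0.07, adjusted p = 0.305), so neither was called. YKL-05-099 against vehicle passed the threshold without PTH replicate 2, 3, 4, 6 or 7, vehicle replicate 5 or YKL-05-099 replicate 8 (adjusted p = 0.0322 to 0.0479) and in a fit of those 2 groups alone (adjusted p = 0.00328). Collectrin (Cltrn, listed as Tmem27), which B0AT1 needs to reach the brush border in kidney, averaged 1255 ± 207 FPKM with PTH, 1361 ± 80.8 FPKM with YKL-05-099 and 1407 ± 144 FPKM with vehicle and was not called. Of the 2 Slc6a20 genes outside the rule, Slc6a20b averaged 58.8 ± 4.11 FPKM with YKL-05-099 and 47.5 ± 3.19 FPKM with vehicle (log2 fold change 0.31 ± 0.08, adjusted p = 0.00758), and Slc6a20a had a log2 fold change of 0.22 (adjusted p = 0.344). The 2 are near copies, so the split of reads between them is uncertain.

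Of the members grouped as uniporters, Slc43a1 and Slc43a3 were called lower with YKL-05-099, Slc16a10 was called higher, and Slc43a2 was not called against vehicle. Slc43a1, which encodes LAT3, a uniporter of branched-chain amino acids and phenylalanine, had 0.51, 0.76 and 0.89 FPKM in YKL-05-099 libraries (lowest, median and highest) and 0.82, 1.15 and 1.54 FPKM in PTH libraries, against 1.09, 1.27 and 1.7 FPKM in vehicle libraries. Every YKL-05-099 library lay below every vehicle library. This gave a log2 fold change of -0.79 ± 0.15 SE against vehicle (adjusted p = 0.00135) and -0.60 ± 0.15 against PTH (adjusted p = 0.0174), on a gene near 1 FPKM, and the call against PTH missed the threshold in a fit of those 2 groups alone (adjusted p = 0.0629). Slc43a3, beside it on chromosome 2, is known as a purine nucleobase carrier in spite of its family. Its YKL-05-099 libraries had 9.21, 10.6 and 13 FPKM and its PTH libraries 11.1, 13.5 and 16.5 FPKM, against 12.6, 13.9 and 16.1 FPKM in vehicle libraries. YKL-05-099 libraries lay below the vehicle range in 6 of 8 cases, with log2 fold changes of -0.37 ± 0.08 against vehicle (adjusted p = 0.00419) and -0.30 ± 0.08 against PTH (adjusted p = 0.0291). The call against PTH was lost on leaving out any 1 of 6 libraries (PTH replicates 2 or 5, YKL-05-099 replicates 2, 4, 5 or 6), with adjusted p up to 0.0686, and without the 4 libraries richest in urothelium markers (adjusted p = 0.191). Slc43a2, which encodes the basolateral uniporter LAT4 of proximal tubule cells, had 28.6, 30.2 and 33.9 FPKM in YKL-05-099 libraries and 21.4, 23.6 and 31.4 FPKM in PTH libraries, against 25.5, 27.4 and 32.3 FPKM in vehicle libraries. Replicate 7 of PTH lay within the YKL-05-099 range, and the other PTH libraries lay below it. It was called between the agents and not against vehicle, with YKL-05-099 higher than PTH by a log2 fold change of 0.30 ± 0.07 (adjusted p = 0.0091), and an antisense gene overlaps its exons. Without PTH replicate 7, PTH against vehicle passed the threshold too (-0.22, adjusted p = 0.0233).

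Of 4 SLC6 carriers of osmolytes and metabolites, 3 were called higher with YKL-05-099, and 2 of those calls, of Slc6a6 and Slc6a8, were lost on leaving out single libraries. Slc6a13, a carrier of GABA and related solutes, had 41.1, 47.7 and 59.9 FPKM in YKL-05-099 libraries (lowest, median and highest), against 29.5, 39.9 and 45.7 FPKM in vehicle libraries. The groups overlapped, and the log2 fold change was 0.33 ± 0.09 SE (adjusted p = 0.0144). The taurine carrier Slc6a6 had 83.8, 91.9 and 108 FPKM, against 72.4, 83.2 and 87.7 FPKM in vehicle libraries, a log2 fold change of 0.19 ± 0.07 (adjusted p = 0.0482). The creatine carrier Slc6a8 had 59.6, 73.3 and 81.9 FPKM, against 58.5, 61.8 and 67.2 FPKM in vehicle libraries, a log2 fold change of 0.17 ± 0.06 (adjusted p = 0.0453). In both, most YKL-05-099 libraries lay above the vehicle range, 7 of 8 for Slc6a6 and 5 of 8 for Slc6a8. For Slc6a8, YKL-05-099 replicates 5 to 8, at 74.95 to 81.88 FPKM, all lay above replicates 1 to 4, at 59.62 to 71.67 FPKM. The Slc6a6 call was lost on leaving out any 1 of 15 libraries (vehicle replicates 1, 2, 3, 4, 6, 7 or 8, PTH replicates 5 or 8, YKL-05-099 replicates 1, 2, 4, 5, 6 or 7), with adjusted p up to 0.105. The Slc6a8 call was lost on leaving out any 1 of 12 libraries (vehicle replicates 2, 4, 5, 6, 7 or 8, PTH replicate 2, YKL-05-099 replicates 4, 5, 6, 7 or 8), with adjusted p up to 0.099. With PTH, Slc6a13, Slc6a6 and Slc6a8 had log2 fold changes of 0.17, 0.06 and 0.00, and none was called. The betaine carrier Slc6a12 ranged over 0.06 to 3.09 FPKM, with a log2 fold change of -0.01 for YKL-05-099 (95% interval -0.97 to 0.95, adjusted p = 0.991), and was not called in any comparison.

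Of the remaining SLC6 members, Slc6a9, the glycine carrier GLYT1, had 3.27, 3.84 and 4.28 FPKM in YKL-05-099 libraries (lowest, median and highest), against 1.82, 2.48 and 3.44 FPKM in vehicle libraries. All but 1 YKL-05-099 library lay above the vehicle range, and the log2 fold change was 0.56 ± 0.13 SE (adjusted p = 0.00372). Exons of Slc6a9 overlap Ccdc24 on the opposite strand. Slc6a17, a carrier of neutral amino acids known from synaptic vesicles, had 4.51, 4.9 and 6.7 FPKM in PTH libraries and 3.08, 4.97 and 7.65 FPKM in YKL-05-099 libraries, against 3.22, 4.07 and 4.34 FPKM in vehicle libraries. Every PTH library and 7 of 8 YKL-05-099 libraries lay above the vehicle range, with replicate 6 of YKL-05-099 below it. Its log2 fold change was 0.39 ± 0.13 for PTH (adjusted p = 0.035) and 0.37 ± 0.13 for YKL-05-099 (adjusted p = 0.0442). The PTH call was lost on leaving out any 1 of 5 libraries (vehicle replicates 2, 6 or 7, PTH replicates 4 or 7), with adjusted p up to 0.082. The YKL-05-099 call was lost on leaving out any 1 of 13 libraries (vehicle replicates 1, 2, 3, 4, 6, 7 or 8, YKL-05-099 replicates 1, 2, 3, 4, 5 or 7), with adjusted p up to 0.0958. The serotonin carrier Slc6a4, not an amino acid transporter but a member by family, had 3.68, 4.33 and 5.06 FPKM in YKL-05-099 libraries and 2.15, 3.1 and 4.12 FPKM in PTH libraries, and 6 of 8 YKL-05-099 libraries lay above the PTH range. Its difference, a log2 fold change of 0.49 ± 0.15 (adjusted p = 0.0491), lost its call on leaving out any 1 of 16 libraries (vehicle replicates 1, 3, 5 or 6, PTH replicates 1, 2, 3, 4 or 5, YKL-05-099 replicates 1, 2, 3, 4, 5, 6 or 8), with adjusted p up to 0.113.

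Slc1a1 encodes EAAC1 (EAAT3), which takes glutamate and aspartate up at the brush border. YKL-05-099 libraries had 53.7, 65.8 and 73.9 FPKM (lowest, median and highest), against 41.9, 55.4 and 60.3 FPKM in vehicle libraries. All but 1 YKL-05-099 library lay above the vehicle range, and the log2 fold change was 0.26 ± 0.07 SE (adjusted p = 0.0178). A coding gene on the opposite strand overlaps its exons. The other SLC1 members measured (Slc1a2, Slc1a3, Slc1a4, Slc1a5 and Slc1a7) were called in no comparison, and the glutamine exchanger Slc1a5 had log2 fold changes of -0.01 with PTH (95% interval -0.20 to 0.17) and 0.07 with YKL-05-099 (95% interval -0.11 to 0.26). Slc36a1 encodes PAT1, a proton-coupled carrier of small amino acids that also sits on lysosomes. It had 13.8, 16.9 and 22.5 FPKM in YKL-05-099 libraries and 11.7, 13.2 and 15.1 FPKM in PTH libraries, against 12.8, 14 and 15.9 FPKM in vehicle libraries. Replicate 6 of YKL-05-099 was the highest at 22.5 FPKM, with the next at 17.6 FPKM. Its log2 fold change was 0.24 ± 0.08 against vehicle (adjusted p = 0.028) and 0.35 ± 0.08 against PTH (adjusted p = 0.00525). The call against vehicle was lost without that library (0.18, adjusted p = 0.059), without vehicle replicate 4 or 7, and without the 4 libraries richest in urothelium markers (0.22, adjusted p = 0.092).

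**Figure D4:**
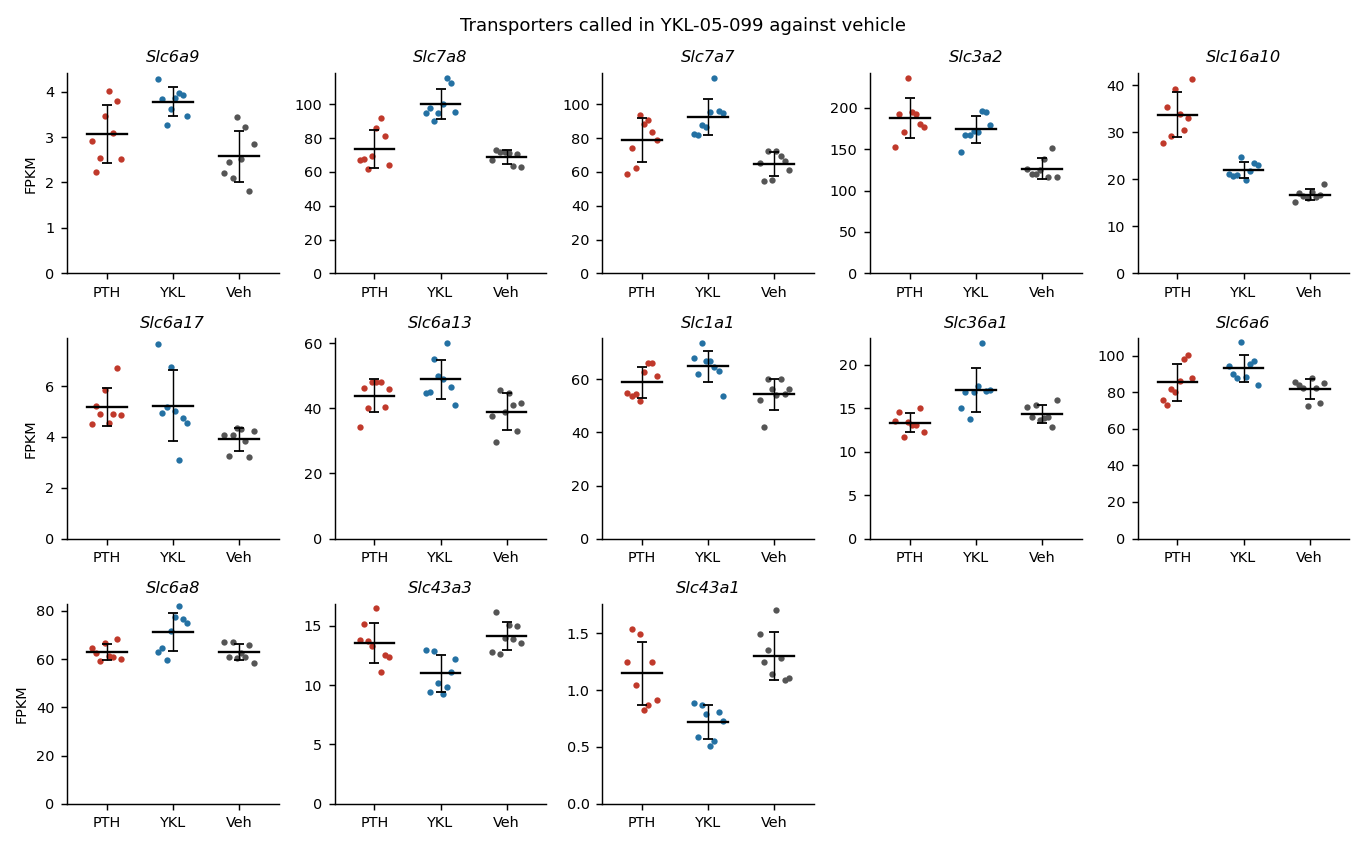
FPKM by library of the 13 amino acid transporters called in YKL-05-099 against vehicle, in order of fold change (PTH, YKL-05-099 and vehicle from left to right; points are libraries, long bars the mean and whiskers the SD, n = 8 each). Slc7a8, Slc7a7 and Slc16a10 have every YKL-05-099 library above every vehicle library, and Slc43a1 has every one below.

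The agents were also set against each other directly. In YKL-05-099 against PTH, 6 of 45 members were called higher and 4 lower, 22.2% of the members where 6.42% of all genes were called. By direction, 13.3% of the members were called higher, where 2.84% of all genes were, and 8.89% lower, where 3.58% of all genes were. The members' median log2 fold change was 0.08 and that of all genes 0.00, and 26 of 45 members lay above 0 where 50.7% of all genes did. Lower with YKL-05-099 than with PTH were Slc38a2, Slc16a10, Slc43a1 and Slc43a3, and higher were Slc6a19, Slc6a4, Slc7a8, Slc7a2, Slc36a1 and Slc43a2. The groups did not overlap for 1 member, Slc16a10, or 2.22% of the members where 0.893% of all genes were separated (0.350% higher and 0.543% lower). Of the members called, Slc38a2 and Slc16a10 had the largest fold changes for PTH against vehicle, and Slc7a8 and Slc36a1 had been called higher with YKL-05-099 and not with PTH. By role, 3 of 4 members grouped as uniporters, with the purine carrier Slc43a3 among them, were called lower and 1 higher between the agents. None was called of 6 SLC1 members or of 4 carriers of osmolytes and metabolites, though Slc6a8 passed the threshold without YKL-05-099 replicate 1 or 3 (adjusted p = 0.0295 to 0.0441). Between the agents, 2 of 8 S1 and S2 markers were called higher and 2 of 5 leukocyte markers lower with YKL-05-099 than with PTH, and their part in these calls was not tested.

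**Figure D5:**
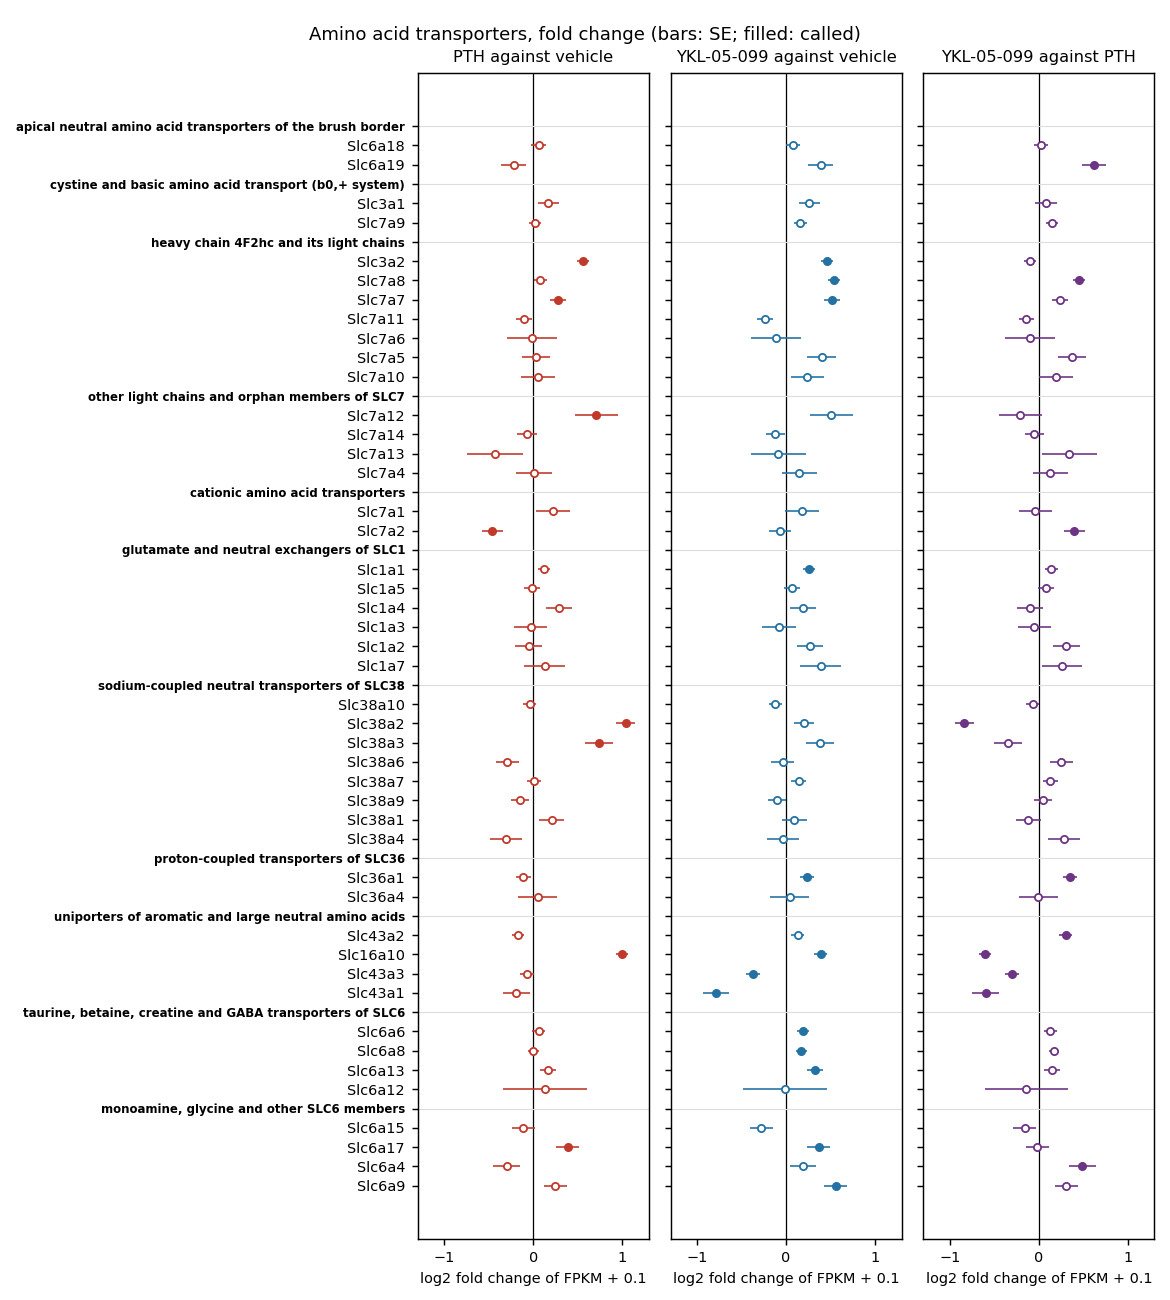
Log2 fold changes of FPKM + 0.1 (x axis, 0 marked by the vertical line) of the 45 measured amino acid transporters grouped by role, in PTH against vehicle, YKL-05-099 against vehicle and YKL-05-099 against PTH. Bars are SE and filled points passed the adjusted p threshold. The 8 filled points for PTH run from -0.46 for Slc7a2 to 1.04 for Slc38a2, and the 13 for YKL-05-099 from -0.79 for Slc43a1 to 0.56 for Slc6a9.

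Genes that act with the transporters were counted over lists, beside the share of all genes called. In PTH against vehicle this share was 17.1% (6.00% higher and 11.1% lower), and in YKL-05-099 against vehicle 17.7% (6.26% higher and 11.5% lower). Of 10 partners and regulators of trafficking, 1 was called higher and 2 lower with PTH, and 2 higher and 1 lower with YKL-05-099. Sgk1, a kinase that raises the surface number of several carriers, averaged 98.4 ± 27 FPKM with PTH (log2 fold change 0.78, adjusted p = 0.0056) and 83.2 ± 17.5 FPKM with YKL-05-099 (0.56, adjusted p = 0.0419), against 58.1 ± 18.7 FPKM with vehicle. Pdzk1, a scaffold of the brush border, fell with both, by log2 fold changes of -0.27 (adjusted p = 0.00712) and -0.23 (adjusted p = 0.021). Wnk4 fell with PTH (-0.37, adjusted p = 7.1e-04). Of 8 carriers of peptides and lysosomal amino acids, 2 were called higher with each agent and 0 lower. Ctns, the lysosomal cystine exporter, averaged 13 ± 1.61 FPKM with PTH and 11.5 ± 1.01 FPKM with YKL-05-099, against 9.12 ± 0.603 FPKM with vehicle (log2 fold changes 0.51, adjusted p = 1.9e-05, and 0.32, adjusted p = 0.00349). Slc15a4, a lysosomal carrier of peptides and histidine, rose with PTH (0.47, adjusted p = 0.00239), and Mfsd12, a lysosomal importer of cysteine, with YKL-05-099 (0.65, adjusted p = 0.0333). Of 9 mitochondrial carriers tested, 0 were called with PTH and 2 higher with YKL-05-099, Slc25a39 (0.46, adjusted p = 9.5e-04), which imports glutathione, and Sfxn1 (0.26, adjusted p = 0.0202), which imports serine.

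ATF4 is the transcription factor that raises carriers and synthetic enzymes when amino acids run short. Of 21 genes on the list of its amino acid response, 2 were called higher and 1 lower with PTH, at a median log2 fold change of 0.02, and 1 higher and 1 lower with YKL-05-099, at a median of 0.04. Atf4 itself averaged 94.9 ± 21.7 FPKM with PTH and 72.4 ± 9.28 FPKM with YKL-05-099, against 58.6 ± 7.92 FPKM with vehicle (log2 fold changes 0.68, adjusted p = 1.2e-04, and 0.31, adjusted p = 0.0571). Ddit3, a partner of ATF4 in stress, rose with PTH (0.67, adjusted p = 0.0227). Trib3, a target of both, fell with PTH (-0.88, adjusted p = 0.0166) and with YKL-05-099 (-0.75, adjusted p = 0.0392). Its level was near the minimum, at 0.448 ± 0.132 FPKM with PTH, 0.524 ± 0.227 FPKM with YKL-05-099 and 0.936 ± 0.375 FPKM with vehicle. Shmt2, a serine and glycine enzyme of mitochondria, rose with YKL-05-099 (0.29, adjusted p = 0.0392). Of 21 genes of amino acid sensing by mTORC1, 2 were called higher and 1 lower with PTH, and 1 higher and 1 lower with YKL-05-099. With PTH, Flcn (0.49, adjusted p = 2.4e-04) and Rragc (0.26, adjusted p = 0.0024) rose and the leucine-responsive Sesn1 fell (-0.63, adjusted p = 6.1e-05). With YKL-05-099, the arginine sensor gene Castor1, listed as Gatsl3, rose (0.64, adjusted p = 0.0105) and Rheb fell (-0.23, adjusted p = 0.0209).

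The kidney also makes and breaks down amino acids, and 34 enzymes and peptidases of this metabolism were counted. Of these, 5 were called higher and 1 lower with PTH, at a median log2 fold change of -0.01, and 8 higher and 1 lower with YKL-05-099, at a median of 0.13. Over all genes, 17.1% were called with PTH (6.00% higher and 11.1% lower) and 17.7% with YKL-05-099 (6.26% higher and 11.5% lower). Got1, cytosolic aspartate aminotransferase, averaged 87.2 ± 15.2 FPKM with PTH and 72.8 ± 11.1 FPKM with YKL-05-099, against 55.4 ± 3.19 FPKM with vehicle (log2 fold changes 0.64, adjusted p = 2.4e-05, and 0.38, adjusted p = 0.00689). Arg2, mitochondrial arginase, rose with PTH (0.51, adjusted p = 0.00313). Ddc, which makes dopamine from L-DOPA, rose with both (0.26, adjusted p = 0.0141 with PTH and 0.21, adjusted p = 0.0414 with YKL-05-099). The brush-border peptidases Ggt1 and Anpep also rose with both, Ggt1 by 0.24 with each agent (adjusted p = 0.0185 with PTH and 0.0189 with YKL-05-099), and Anpep by 0.25 with PTH (adjusted p = 0.0265) and 0.38 with YKL-05-099 (adjusted p = 0.00224). Called higher with YKL-05-099 and not with PTH were Gatm (0.48, adjusted p = 0.00225), which makes the creatine precursor, the aminotransferases Gpt2 (0.37, adjusted p = 0.0138) and Got2 (0.23, adjusted p = 0.00691), and Aldh4a1 (0.17, adjusted p = 0.016), an enzyme of proline breakdown. Cdo1, which oxidises cysteine, fell with PTH (-0.31, adjusted p = 0.00323) and YKL-05-099 (-0.23, adjusted p = 0.0224).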

How the data were processed

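Total RNA of whole kidneys was made into libraries and sequenced as DNA nanoballs (BGISEQ500), per the labels. The table that the authors deposited holds FPKM values, rounded to 2 decimals, for 24 libraries and 19426 entries. Tools named in the submitters' processing notes are DESeq2, RSEM 1.3.0 and STAR 2.7.2b, with the builds GRCm38 and mm10, and the strand setting is not given in the sources used here. FPKM is relative to each library's total, so changes in abundant genes shift the rest, and in each library 11.8% to 15.3% of the FPKM sum came from its top 10 genes. A value column equal to PTH replicate 3 in every entry was left out (1 unused column).

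FPKM are not counts, so the 13991 genes averaging 0.5 FPKM or more were tested as log2(FPKM + 0.1), a scale that understates changes of low genes, with 1 linear model over the 3 groups in limma 3.58.1 (R 4.3.3, moderated variances with a mean trend). P-values were adjusted by Benjamini-Hochberg over all tested genes and called below 0.05. The model was tested on simulated data. Depth was estimated from low values of genes with a known transcript length, of which 79.2% to 86.1% lay within 0.2 of a whole number of fragments, where 40.0% would do so by chance. Fragments per gene were not worked out from it for a count model. The number of libraries and this depth limit the precision.

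Members and lists (partners and trafficking, peptide and lysosomal carriers, mitochondrial carriers, ATF4 response, mTORC1 sensing, amino acid metabolism and cell type markers) were chosen with earlier results of these data known. Described in full were members called in at least 1 comparison and the 6 with the highest mean, list members called against vehicle were named with Cltrn and Atf4, and the rest were counted. The uncalled marker Slc12a3 was named as well, after its values were seen. A further gene that this rule names is not reported here. Lists got no set test. Alternatives were a pseudocount of 1 FPKM, no filter, median-ratio scaling, quantile normalization, a block for the replicate number, library weights, separate fits of each pair of groups, leaving out the 4 libraries with the highest urothelium score, and leaving out each library in turn. How the calls of list genes fared under these alternatives was not examined. Coordinates and promoters are from RefSeq (GRCm38.p6, promoter windows for 32 of the 45 measured members), and exon overlaps from GENCODE M21. Python 3.11.15 with numpy 2.4.6, pandas 2.3.3, scipy 1.17.1 and matplotlib 3.10.9 did the rest.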

Additional observations from a re-analysis of the deposited data

Results flagged for a closer look

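In 10 of 135 groups of 8 libraries (45 members in 3 groups), the highest or lowest library lay far from the others, with a gap to the next library of more than 0.526 of the group's range, a limit that chance passes in about 6.75 of 135 groups. YKL-05-099 replicate 6 was the highest of its group for Slc7a7 at 115 FPKM (next 95.8) and for Slc36a1 at 22.5 FPKM (next 17.6), and the lowest for Slc38a1 at 0.55 FPKM (next 0.93). Without it, Slc7a7 kept its call against vehicle (log2 fold change 0.47, limma adjusted p = 0.00176) and Slc36a1 lost it (0.18, adjusted p = 0.059). YKL-05-099 replicate 1 was the highest for Slc38a2 at 31 FPKM (next 20.4), and replicate 2 for Slc7a6 at 3.7 FPKM (next 1.76). PTH replicate 4 was the highest for Slc38a3 at 58.2 FPKM (next 30), and without it Slc38a3 kept its call (0.58, adjusted p = 8.7e-04). PTH replicate 7 was the highest for Slc38a10 at 48.2 FPKM (next 44.5). Of the vehicle libraries, replicate 2 was the lowest for Slc1a1 at 41.9 FPKM (next 52.1), replicate 7 the highest for Slc43a2 at 32.3 FPKM (next 28.7) and replicate 1 the lowest for Slc38a6 at 5.7 FPKM (next 7.74). Without vehicle replicate 2, Slc1a1 kept its call in YKL-05-099 against vehicle (0.20, adjusted p = 0.0409).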

How the results depend on the processing

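Of 31 calls of members over the 3 comparisons, 20 held under all 8 other settings and all 24 fits that left out 1 library, 11 were lost under at least 1, and 0 changed direction. Members called higher with PTH numbered 7, and 4 of the same 45 without a filter on low genes (where Slc6a5 and Slc7a3, below the minimum, were called too), and 4 to 7 on leaving out 1 library (4 without vehicle replicate 2, vehicle replicate 7 or PTH replicate 7). Members called lower with PTH numbered 1, and 2 with library weights (Slc38a6 added), and 1 to 2 on leaving out 1 library (2 without PTH replicate 4, with Slc38a6, or 7, with Slc43a2). The members' median for PTH was 0.02, and 0.08 after quantile normalization. Members called higher with YKL-05-099 numbered 11, and 7 to 13 on leaving out 1 library (7 without vehicle replicate 4 or 7). Members lower with YKL-05-099 than with PTH numbered 4, and 2 in a fit over those 2 groups, and the members' median of 0.08 ran from 0.06 to 0.14 on leaving out 1 library (0.14 without PTH replicate 7). Over all genes, YKL-05-099 against vehicle gave 2481 calls and 3834 with library weights, and YKL-05-099 against PTH gave 898, and 519 in a fit over those 2 groups and 564 without the 4 libraries richest in urothelium markers. Settings that kept all libraries or dropped the urothelium-rich ones ended calls as follows (limma adjusted p). Without the filter, Slc6a6, Slc6a8 and Slc6a17 with YKL-05-099, Slc7a12, Slc7a7 and Slc6a17 with PTH, and Slc6a4 and Slc7a2 between the agents were lost (0.0517 to 0.073). Fits of 2 groups lost Slc6a8 and Slc6a17 with YKL-05-099, Slc7a7 with PTH, and Slc43a3, Slc7a2 and Slc43a1 between the agents (0.0518 to 0.11). Without the urothelium-rich libraries, Slc6a6, Slc36a1 and Slc6a17 with YKL-05-099, Slc7a12 and Slc6a17 with PTH, and Slc43a3, Slc6a4 and Slc7a2 between the agents were lost (0.061 to 0.191). Slc6a4 between the agents was also lost with a pseudocount of 1 FPKM, both scalings and library weights (0.0507 to 0.121), and Slc7a2 after quantile normalization (0.0583). The cause was not tested.

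The replicate numbers did not pair the samples: the correlation of same-numbered libraries across groups was -0.2006 to 0.2024, 1 of 24 pairs was over 0.1, and 1 library correlated best with its own number. With the replicate number as a block, 6 members were called higher and 1 lower with PTH, 9 and 3 with YKL-05-099, and 5 and 3 in YKL-05-099 against PTH. The block brought Slc6a19 with YKL-05-099 past the threshold (adjusted p = 0.0287), as did median-ratio scaling (0.0441), quantile normalization (0.0459) and library weights (0.0132). The block also brought Slc7a11 past it as lower with YKL-05-099 (0.045). Library weights did so for Slc38a3 (0.0116), Slc7a11 (0.0429), Slc7a5 and Slc7a9 with YKL-05-099. The block ended the calls of Slc6a6, Slc6a8 and Slc6a17 with YKL-05-099, Slc7a12 with PTH, and Slc43a3 and Slc7a2 between the agents (adjusted p = 0.0517 to 0.0807).

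At the estimated depth, 9 of 31 members with a known length had under 50 fragments per library, and Slc7a4 had about 12, so small changes in the lowest members were not detectable.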
